A study of Mus musculus with 8 samples.

Results

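The genes described here encode the enzymes of glycolysis, the carriers that bring glucose into the cell and take lactate out, the enzymes and kinases that decide whether pyruvate enters the mitochondria, the enzymes of the pentose phosphate pathway, and the oxygen-regulated transcription factor subunit Hif1a. A list of 43 genes was used. A gene was measured where a row of the array table was annotated to its symbol alone, and where a gene had several such rows the row with the highest mean over the arrays was taken. This gave 38 genes out of 19938 in the table. Gpi1, Pfkfb1, Eno1 and G6pdx were not analysed here, and Gapdh is described only through rows that it shares with pseudogenes.

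Expression was measured on 8 arrays of dendritic cells sorted from the spleens of untreated mice whose Il12b locus carries EYFP, a yellow fluorescent reporter. The cells were negative for lineage markers, absent or low for Bst2, high for CD11c and positive for CD8α, the phenotype of XCR1+ dendritic cells in mouse spleen, a subset known for presenting captured antigen to CD8 T cells. CCR7+Il12b+ cells (n = 2) carried the chemokine receptor CCR7 and the reporter, CCR7+Il12b- cells (n = 3) carried CCR7 without reporter, and immature cells (n = 3) carried neither. The labels call both CCR7+ fractions homeostatically matured, and the question of each comparison was what differs between such cells and the immature ones. The reporter stands for Il12b, not for maturation as a whole, and the labels do not say whether replicates came from separate mice. Either 3 or 20 ng of RNA was amplified per sample, and which sample had which input was not given in the sources used here, so an input that followed the groups cannot be told apart from them.

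Glycolysis converts glucose to pyruvate and yields ATP without oxygen. Pyruvate is then reduced to lactate by lactate dehydrogenase or oxidised in mitochondria through the pyruvate dehydrogenase complex, which the PDK kinases switch off. The pentose phosphate pathway branches off after glucose is phosphorylated and supplies NADPH and the ribose of nucleotides. Dendritic cells activated in culture with ligands of Toll-like receptors are known to take up more glucose and release more lactate, and Hif1a is known to drive glycolytic genes when oxygen is low. Several steps have tissue-specific versions of the enzyme: Eno2 is known as the enolase of neurons and Eno3 as that of muscle, while Eno1 is the common one.

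Values are log2 expression per probe set, so that a difference of 1 is a 2-fold difference. A mark of 5.03, the 95th percentile of the values of 1194 olfactory and vomeronasal receptor genes, stood for background. Of the 38 genes, 34 had a group mean above it in at least 1 group, and Pfkm, Ldhb, Slc16a1 and Pdk4 had none. Array medians lay between 5.25 and 5.46, and correlations across genes were 0.987 between the CCR7+Il12b+ arrays, 0.986 to 0.992 among CCR7+Il12b- arrays and 0.992 to 0.996 among immature arrays. CCR7+Il12b- replicate 3 lay nearest to the CCR7+Il12b+ arrays for several of the genes below. With 2 or 3 arrays a group, precision is limited by their number.

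The genes of the pathway were called in both directions. In CCR7+Il12b+ cells 4 of the 38 genes rose and 19 fell against immature cells, and in CCR7+Il12b- cells 4 rose and 13 fell (limma, Benjamini-Hochberg adjusted p under 0.05 over all 19938 genes). The 4 that rose were the same in both comparisons, namely Slc2a6, Pfkfb3, Eno2 and Eno3. Among the genes that fell were Ldha, Taldo1, Tkt, Hk2, Pgam1, Tpi1 and Pdk1. Both comparisons use the same immature arrays. For CCR7+Il12b+ against immature cells the share called was 60.5% of the 38 genes and 32% of all genes, with 10.5% against 14.1% higher and 50% against 17.9% lower. For CCR7+Il12b- against immature cells it was 44.7% of the 38 genes and 23.6% of all genes, with 10.5% against 9.1% higher and 34.2% against 14.5% lower. Among all genes with a group mean above the mark in either group compared, 47.4% were called for CCR7+Il12b+ against immature cells and 36.5% for CCR7+Il12b- against immature cells. The share of rises was thus close to or below that over all genes, and the share of falls was above it. A fit of only the 12689 genes with a group mean above the mark called 2544 higher and 3579 lower in CCR7+Il12b+ cells. In CCR7+Il12b- cells it called 1743 higher and 2993 lower. Among the 34 listed genes in that fit, 4 were higher and 19 lower in CCR7+Il12b+ cells, and 4 higher and 14 lower in CCR7+Il12b- cells. The median log2 change was -0.47 over the 38 genes and 0.09 over all genes in CCR7+Il12b+ cells, and -0.30 over the 38 genes and 0.06 over all genes in CCR7+Il12b- cells. Centring each array on its median moved the median of all genes to -0.05 in CCR7+Il12b+ cells and to -0.04 in CCR7+Il12b- cells, and no call among the 38 genes was lost or turned by it.

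Counted without a test, the CCR7+Il12b+ and immature samples did not overlap for 30 of the 38 genes, 7 higher and 23 lower, where 57.1% of all genes did not overlap, 33.5% higher and 23.6% lower. The CCR7+Il12b- and immature samples did not overlap for 20 of the 38 genes, 6 higher and 14 lower, where 41.3% of all genes did not, 22.1% higher and 19.2% lower. Between CCR7+Il12b+ and CCR7+Il12b- cells 20 of the 38 genes did not overlap, 5 higher and 15 lower, where 29.6% of all genes did not, 15.3% higher and 14.3% lower.

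**Figure D1:**
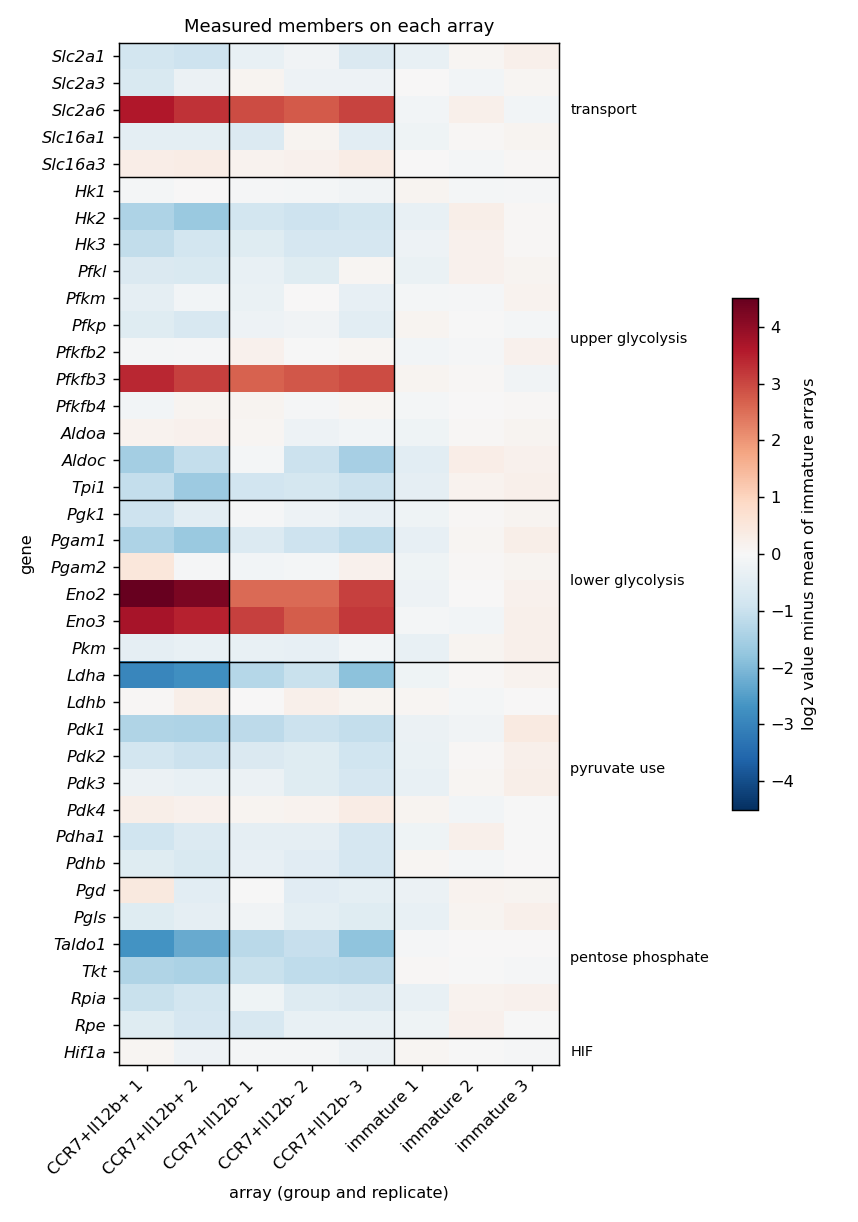
Each cell shows the log2 value of 1 gene (rows, in pathway order) on 1 array (columns, by group and replicate) minus the mean of the 3 immature arrays for that gene, red for higher and blue for lower. Slc2a6, Pfkfb3, Eno2 and Eno3 are red on all 5 CCR7+ arrays, and Ldha and Taldo1 are bluest on both CCR7+Il12b+ arrays. The Hk1 row is the one whose annotation is in doubt.

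The promoters of the 4 genes that rose are shown first, because they are the only genes of the list that rose, and that of Ldha is shown beside them as the gene with the largest fall. Promoters of 37 of the 38 genes were found in a RefSeq table of the build GRCm38.p6, as windows of 300 bases around each transcript start, 52 windows in all. Capitals mark the words ACGTG and GCGTG on either strand, the core of the element that HIF binds. The word CACGTG, an E-box, holds ACGTG on both strands and so counts as 2 matches. Pfkfb3 and Ldha each have 2 windows in the table, and the one with more matches is printed.
Slc2a6, chr2:27027949-27028248, minus strand: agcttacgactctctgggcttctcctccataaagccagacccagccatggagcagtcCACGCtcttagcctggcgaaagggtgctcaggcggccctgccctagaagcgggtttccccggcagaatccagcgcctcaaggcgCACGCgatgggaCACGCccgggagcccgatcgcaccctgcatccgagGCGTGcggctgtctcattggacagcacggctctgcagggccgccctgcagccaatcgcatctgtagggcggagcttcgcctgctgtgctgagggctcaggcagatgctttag
Pfkfb3, chr2:11502041-11502340, minus strand: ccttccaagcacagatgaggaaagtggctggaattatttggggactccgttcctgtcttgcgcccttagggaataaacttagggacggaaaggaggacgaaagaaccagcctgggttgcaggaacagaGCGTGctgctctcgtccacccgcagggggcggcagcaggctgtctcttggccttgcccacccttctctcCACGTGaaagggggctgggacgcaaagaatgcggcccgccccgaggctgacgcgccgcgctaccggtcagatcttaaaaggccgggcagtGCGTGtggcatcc
Eno2, chr6:124769624-124769923, minus strand: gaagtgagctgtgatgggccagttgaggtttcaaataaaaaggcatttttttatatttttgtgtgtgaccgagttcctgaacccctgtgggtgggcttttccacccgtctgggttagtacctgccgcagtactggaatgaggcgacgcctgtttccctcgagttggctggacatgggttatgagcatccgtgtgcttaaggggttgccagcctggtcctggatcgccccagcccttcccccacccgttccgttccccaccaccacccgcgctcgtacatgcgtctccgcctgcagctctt
Eno3, chr11:70656926-70657225, plus strand: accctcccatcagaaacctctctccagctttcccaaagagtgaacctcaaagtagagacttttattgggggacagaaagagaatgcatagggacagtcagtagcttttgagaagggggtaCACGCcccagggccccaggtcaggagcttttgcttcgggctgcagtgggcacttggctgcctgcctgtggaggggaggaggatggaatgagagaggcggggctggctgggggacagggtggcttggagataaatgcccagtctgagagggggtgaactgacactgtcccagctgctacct
Ldha, chr7:46845554-46845853, plus strand: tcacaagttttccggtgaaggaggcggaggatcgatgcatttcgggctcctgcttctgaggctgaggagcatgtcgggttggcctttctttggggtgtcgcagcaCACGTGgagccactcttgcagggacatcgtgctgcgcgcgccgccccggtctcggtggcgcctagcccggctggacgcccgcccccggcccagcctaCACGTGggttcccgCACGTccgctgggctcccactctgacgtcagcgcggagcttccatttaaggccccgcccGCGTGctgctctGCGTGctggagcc
The HIF core was found 4 times in the window of Slc2a6, 4 times in that of Pfkfb3, 0 times in that of Eno2, 1 time in that of Eno3 and 7 times in that of Ldha. It was present in 43.8% of all 32851 windows of the table and in 41 of the 52 windows of these genes. The word CACGTG was in 7.15% of all windows and in 7 of the 52. A kappaB-like word, GGGA and TTTCC with 1 free base between them, was in 0.411% of all windows and in 0 of the 52. The windows were not matched for base composition. Among the 5 printed, Ldha with 7 matches fell, while Slc2a6 with 4, Pfkfb3 with 4, Eno3 with 1 and Eno2 with 0 rose. The window of Pfkfb3 that is not printed held 1 match, and that of Ldha held 2. A link between matches and changes was not tested.

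Carriers of glucose were called in opposite directions. Slc2a6 encodes GLUT6, a facilitative carrier of the glucose transporter family that is found in lysosomal membranes of mouse macrophages. Its log2 values were 9.65 and 9.28 in CCR7+Il12b+ cells, 8.96, 8.80 and 9.06 in CCR7+Il12b- cells, and 5.93, 6.27 and 5.92 in immature cells. All 5 CCR7+ values lay above all immature ones, and the rise was 10.7-fold in CCR7+Il12b+ cells (log2 change 3.43 ± 0.16 SE, adjusted p = 6.51e-08) and 7.48-fold in CCR7+Il12b- cells (2.90 ± 0.14, adjusted p = 1.66e-07) in limma's moderated test. Slc2a1, the gene of GLUT1, the widespread carrier of the cell surface, was at 6.57 and 6.46 in CCR7+Il12b+ cells, at 7.05, 7.24 and 6.72 in CCR7+Il12b- cells, and at 7.05, 7.47 and 7.62 in immature cells. It was 1.82-fold lower in CCR7+Il12b+ cells (-0.86 ± 0.19, adjusted p = 0.00412 in limma), while the CCR7+Il12b- values overlapped the immature ones (-0.38 ± 0.17, adjusted p = 0.139). Slc2a3, which encodes the high-affinity carrier GLUT3, was at 5.47 and 5.89 in CCR7+Il12b+ cells, at 6.27, 5.92 and 5.93 in CCR7+Il12b- cells, and at 6.18, 6.05 and 6.26 in immature cells. Its difference in CCR7+Il12b+ cells (-0.48 ± 0.16, limma adjusted p = 0.0396) was -0.27 without CCR7+Il12b+ replicate 1 (adjusted p = 0.262), and the call also ended without CCR7+Il12b- replicate 2 or any 1 of the immature replicates (adjusted p from 0.0501 to 0.121), with array weights (0.0645) and with the replicate number as a block (0.0863).

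The proton-coupled carriers of lactate and pyruvate gave no call. Slc16a3, the gene of the lactate exporter MCT4, was at 6.14 and 6.17 in CCR7+Il12b+ cells, at 6.0, 6.04 and 6.17 in CCR7+Il12b- cells, and at 5.86, 5.78 and 5.91 in immature cells. All CCR7+ values lay above the immature ones, yet neither the difference of 0.31 ± 0.11 in CCR7+Il12b+ cells (adjusted p = 0.0587) nor that of 0.22 ± 0.10 in CCR7+Il12b- cells (adjusted p = 0.143) passed in limma. Slc16a1, the gene of MCT1, had a mean below the background mark in every group.

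In the upper steps of glycolysis 1 of 12 measured genes rose and 6 fell in CCR7+Il12b+ cells, and 1 rose and 3 fell in CCR7+Il12b- cells. The rise was that of Pfkfb3, whose product makes the fructose bisphosphate that activates phosphofructokinase. Its log2 values were 12.00 and 11.66 in CCR7+Il12b+ cells, 11.24, 11.40 and 11.54 in CCR7+Il12b- cells, and 8.71, 8.66 and 8.42 in immature cells. The groups did not overlap, and the rise was 9.42-fold in CCR7+Il12b+ cells (3.24 ± 0.15, adjusted p = 6.96e-08) and 6.95-fold in CCR7+Il12b- cells (2.80 ± 0.13, adjusted p = 1.55e-07). The other measured versions of this enzyme were not called. Pfkfb2 differed from immature cells by -0.08 in CCR7+Il12b+ cells and 0.08 in CCR7+Il12b- cells, and Pfkfb4 by 0.02 in CCR7+Il12b+ cells and 0.05 in CCR7+Il12b- cells (adjusted p from 0.650 to 0.933 in limma).

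Hexokinases trap glucose in the cell by phosphorylating it. Hk2, the inducible form, was at 5.28 and 5.0 in CCR7+Il12b+ cells, at 5.83, 5.73 and 5.84 in CCR7+Il12b- cells, and at 6.36, 6.93 and 6.74 in immature cells. It was 2.90-fold lower in CCR7+Il12b+ cells (-1.53 ± 0.17, adjusted p = 2.97e-05) and 1.83-fold lower in CCR7+Il12b- cells (-0.87 ± 0.15, adjusted p = 0.0014). Hk3, the form best known from myeloid cells, fell 1.95-fold in CCR7+Il12b+ cells (-0.96 ± 0.15) and 1.61-fold in CCR7+Il12b- cells (-0.69 ± 0.13). Hk1, the housekeeping form, cannot be read from the row with the highest mean. That row is annotated through 1 sequence record only, and 16 further rows name Hk1 together with the ribosomal protein gene Rpl17. The other Hk1 row, annotated with RefSeq transcripts and looked at after the values were seen, was at 6.30 and 6.25 in CCR7+Il12b+ cells, at 6.12, 6.06 and 6.19 in CCR7+Il12b- cells, and at 5.90, 6.0 and 6.04 in immature cells. On that row the difference from immature cells was 0.30 in CCR7+Il12b+ cells (limma adjusted p = 0.0582) and 0.15 in CCR7+Il12b- cells (0.337). On the row with the highest mean it was -0.03 in CCR7+Il12b+ cells and -0.09 in CCR7+Il12b- cells.

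No gene of the remaining upper steps rose. Pfkl, a phosphofructokinase subunit, fell by 0.66 ± 0.19 on the log2 scale in CCR7+Il12b+ cells and differed by -0.26 in CCR7+Il12b- cells (limma adjusted p = 0.312). Pfkp, another subunit, fell by 0.62 ± 0.13 in CCR7+Il12b+ cells and differed by -0.27 in CCR7+Il12b- cells (adjusted p = 0.134). The call of Pfkl ended without either CCR7+Il12b+ replicate or without immature replicate 2 or 3 (adjusted p from 0.0678 to 0.102). Aldoa, the common aldolase, differed from immature cells by 0.16 in CCR7+Il12b+ cells (adjusted p = 0.405) and by -0.10 in CCR7+Il12b- cells (0.618). Aldoc, an aldolase known from the brain, was at 5.27 and 5.74 in CCR7+Il12b+ cells, at 6.70, 5.84 and 5.29 in CCR7+Il12b- cells, and at 6.33, 7.08 and 6.97 in immature cells. The 3 CCR7+Il12b- values spanned more than a 2-fold range. Its fall in CCR7+Il12b+ cells (-1.29 ± 0.35, adjusted p = 0.0146) did not pass without CCR7+Il12b+ replicate 1 (0.110) or immature replicate 2 (0.0536). Tpi1, triose phosphate isomerase, was at 7.10 and 6.54 in CCR7+Il12b+ cells, at 7.33, 7.40 and 7.21 in CCR7+Il12b- cells, and at 7.78, 8.33 and 8.42 in immature cells. It fell 2.57-fold in CCR7+Il12b+ cells (-1.36 ± 0.21, adjusted p = 0.000362) and 1.82-fold in CCR7+Il12b- cells (-0.87 ± 0.18, adjusted p = 0.00541).

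**Figure D2:**
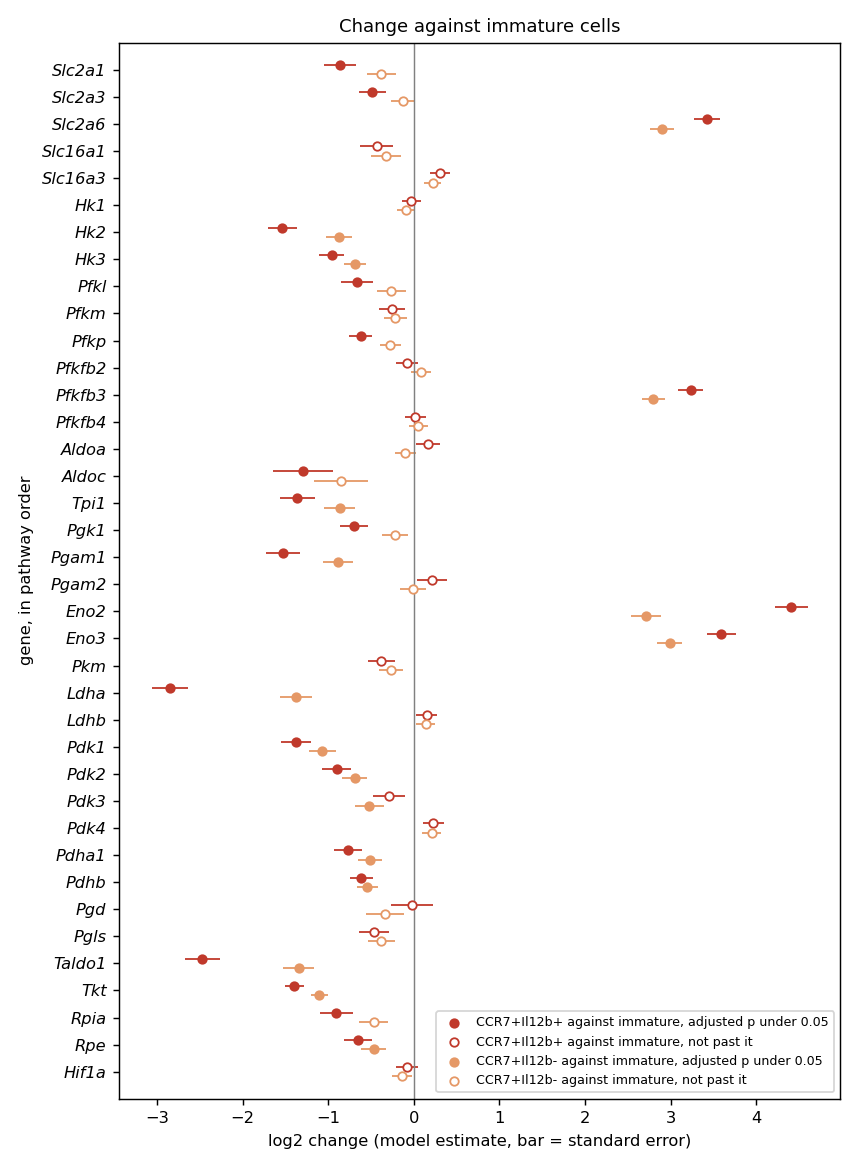
Points give the log2 change of each measured gene against immature cells in limma, for CCR7+Il12b+ cells (red) and CCR7+Il12b- cells (orange), with bars of 1 standard error, and filled points passed an adjusted p of 0.05. Slc2a6, Pfkfb3 and Eno3 lie between 2.80 and 3.59, and Eno2 also lies far to the right. Points of Eno2, Pdk1 and Pdk2, whose mean was below the background mark in a group compared, are fitted estimates for which the text gives bounds. Ldha (-2.85) and Taldo1 (-2.47) lie lowest.

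In the lower steps of glycolysis rises stood beside falls. Eno2 was at 9.13 and 8.79 in CCR7+Il12b+ cells, at 7.09, 7.09 and 7.62 in CCR7+Il12b- cells, and at 4.33, 4.57 and 4.76 in immature cells. All immature values lay below the background mark, so that the rise was at least 15.2-fold in CCR7+Il12b+ cells (adjusted p = 4.85e-08) and at least 4.70-fold in CCR7+Il12b- cells (adjusted p = 1.36e-06), counted from the mark. Eno3 was at 10.60 and 10.36 in CCR7+Il12b+ cells, at 9.97, 9.60 and 10.05 in CCR7+Il12b- cells, and at 6.80, 6.75 and 7.10 in immature cells. It rose 12.1-fold in CCR7+Il12b+ cells (3.59 ± 0.17, adjusted p = 6.87e-08) and 7.95-fold in CCR7+Il12b- cells (2.99 ± 0.15, adjusted p = 2.06e-07). Both enolase genes were thus higher on every CCR7+ array, and Eno1, the common form, was not analysed here.

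Pgam1, the phosphoglycerate mutase that acts just before enolase, went the other way. It was at 7.27 and 7.02 in CCR7+Il12b+ cells, at 8.06, 7.75 and 7.54 in CCR7+Il12b- cells, and at 8.31, 8.77 and 8.93 in immature cells. It fell 2.89-fold in CCR7+Il12b+ cells (-1.53 ± 0.20, adjusted p = 0.000112) and 1.85-fold in CCR7+Il12b- cells (-0.89 ± 0.18, adjusted p = 0.00366). Pgam2, the muscle form, differed by 0.22 in CCR7+Il12b+ cells (adjusted p = 0.375) and by -0.01 in CCR7+Il12b- cells (0.977 in limma). Pgk1, phosphoglycerate kinase, fell in CCR7+Il12b+ cells (-0.70 ± 0.17, adjusted p = 0.00707), and without CCR7+Il12b+ replicate 1 its value was -0.46 (adjusted p = 0.0739). In CCR7+Il12b- cells Pgk1 differed by -0.22 ± 0.15 and was not called (adjusted p = 0.341 in limma). For Pgam1 and Pgk1, 2 of 3 rows held the same values, so their levels are uncertain where near-identical copies exist. The third row of Pgam1 gave -1.81 in CCR7+Il12b+ cells and -1.05 in CCR7+Il12b- cells. Pkm, pyruvate kinase, was at 8.95 and 9.03 in CCR7+Il12b+ cells, at 9.04, 9.01 and 9.25 in CCR7+Il12b- cells, and at 9.05, 9.47 and 9.58 in immature cells. Its difference of -0.38 ± 0.16 in CCR7+Il12b+ cells (adjusted p = 0.0966) and that of -0.27 ± 0.14 in CCR7+Il12b- cells (0.220) did not pass in limma, and the table does not separate its M1 and M2 splice forms.

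Gapdh appeared in 25 rows, each annotated also to pseudogenes, with row means from 11.0 to 11.9. Their log2 differences from immature cells ran from -0.29 to -0.15 in CCR7+Il12b+ cells and from -0.28 to -0.17 in CCR7+Il12b- cells. In each of these comparisons 24 of the 25 rows were lower without overlap of samples. Over all genes this share was 23.6% for CCR7+Il12b+ cells and 19.2% for CCR7+Il12b- cells. Several of the 25 rows held the same values. Their annotations overlap, so they were not counted as independent, and none can be assigned to Gapdh alone.

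At the fate of pyruvate no gene rose, and 5 of 8 fell in CCR7+Il12b+ cells and 6 of 8 in CCR7+Il12b- cells. Ldha encodes the lactate dehydrogenase subunit that favours lactate formation. Its log2 values were 6.70 and 6.87 in CCR7+Il12b+ cells, 8.36, 8.63 and 7.78 in CCR7+Il12b- cells, and 9.43, 9.67 and 9.77 in immature cells. The 3 groups did not overlap, and CCR7+Il12b- replicate 3 was the lowest of its group. The fall was 7.19-fold in CCR7+Il12b+ cells (-2.85 ± 0.21, adjusted p = 1.97e-06) and 2.59-fold in CCR7+Il12b- cells (-1.37 ± 0.19, adjusted p = 0.000381). Ldhb, the other subunit, lay below the background mark in all groups. Pdk4 did too.

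Kinases of pyruvate dehydrogenase and the enzyme's own first subunits fell as well. Pdk1 was at 4.53 and 4.49 in CCR7+Il12b+ cells, at 4.72, 4.91 and 4.81 in CCR7+Il12b- cells, and at 5.63, 5.73 and 6.28 in immature cells. Since all CCR7+ values were below the mark, the fall was at least 1.80-fold in CCR7+Il12b+ cells (adjusted p = 0.000106) and in CCR7+Il12b- cells (0.000575). Pdk2 fell at least 1.53-fold in CCR7+Il12b+ cells (adjusted p = 0.00134) and at least 1.50-fold in CCR7+Il12b- cells (0.00551), counted from the mark in the same way. Pdk3 differed by -0.29 ± 0.18 in CCR7+Il12b+ cells (adjusted p = 0.267) and by -0.52 ± 0.17 in CCR7+Il12b- cells (adjusted p = 0.0432), a call that ended under 9 of 19 alternatives (adjusted p from 0.0519 to 0.181), among them the fit without CCR7+Il12b- replicate 2 or 3, either CCR7+Il12b+ replicate or immature replicate 2 or 3, and the replicate block (0.0797). Pdha1 and Pdhb encode the subunits of the complex's first enzyme. Pdha1 fell by 0.77 ± 0.16 on the log2 scale in CCR7+Il12b+ cells and by 0.51 ± 0.14 in CCR7+Il12b- cells, and Pdhb fell by 0.61 ± 0.14 in CCR7+Il12b+ cells and by 0.54 ± 0.12 in CCR7+Il12b- cells. The call of Pdha1 in CCR7+Il12b- cells ended without CCR7+Il12b- replicate 3 or immature replicate 2 or 3 (adjusted p from 0.0668 to 0.117).

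In the pentose phosphate pathway 4 of 6 genes fell in CCR7+Il12b+ cells and 3 of 6 in CCR7+Il12b- cells, and none rose. The largest falls were in the non-oxidative branch, which exchanges sugar phosphates with glycolysis. Taldo1, transaldolase, was at 8.02 and 8.43 in CCR7+Il12b+ cells, at 9.48, 9.67 and 8.90 in CCR7+Il12b- cells, and at 10.66, 10.72 and 10.71 in immature cells. It fell 5.55-fold in CCR7+Il12b+ cells (-2.47 ± 0.20, adjusted p = 4.01e-06) and 2.54-fold in CCR7+Il12b- cells (-1.35 ± 0.18, adjusted p = 0.00034). Tkt, transketolase, was at 7.56 and 7.49 in CCR7+Il12b+ cells, at 7.92, 7.79 and 7.75 in CCR7+Il12b- cells, and at 8.96, 8.92 and 8.89 in immature cells. It fell 2.63-fold in CCR7+Il12b+ cells (-1.40 ± 0.11, adjusted p = 3.02e-06) and 2.15-fold in CCR7+Il12b- cells (-1.10 ± 0.10, adjusted p = 1.90e-05), and its replicates lay close together in each group. Rpia, the ribose phosphate isomerase, fell in CCR7+Il12b+ cells (-0.90 ± 0.19, adjusted p = 0.00326) and differed by -0.47 ± 0.17 in CCR7+Il12b- cells (adjusted p = 0.0702). Rpe, the epimerase of the same branch, fell by 0.65 ± 0.16 on the log2 scale in CCR7+Il12b+ cells and by 0.47 ± 0.15 in CCR7+Il12b- cells, and its call in CCR7+Il12b- cells ended under 7 of 19 alternatives (adjusted p from 0.0516 to 0.166), including the fits without CCR7+Il12b- replicate 1 or 2 or immature replicate 2 or 3, the replicate block (0.0516) and both renormalizations. In CCR7+Il12b+ cells the call of Rpe ended without CCR7+Il12b+ replicate 2 (0.0915). The oxidative branch was represented by Pgd, which differed by -0.02 in CCR7+Il12b+ cells and -0.33 in CCR7+Il12b- cells, and by Pgls, which differed by -0.47 in CCR7+Il12b+ cells and -0.38 in CCR7+Il12b- cells. None of these passed (adjusted p from 0.0641 to 0.959 in limma). The CCR7+Il12b+ values of Pgd, 8.49 and 7.58, lay on either side of its immature mean of 8.05.

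**Figure D3:**
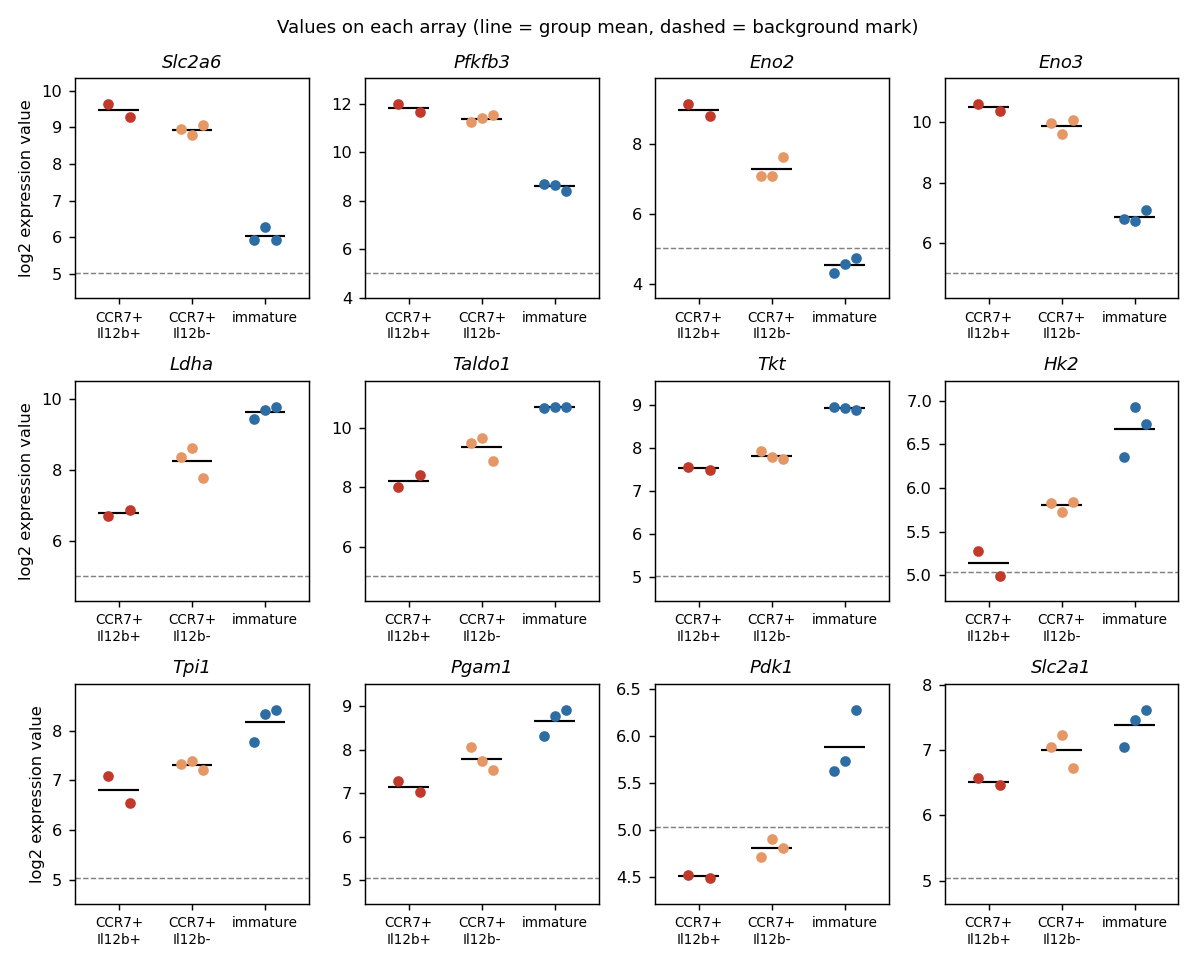
Each point is the log2 value of 1 array, with the group mean as a line and the background mark of 5.03 dashed, for 12 genes in CCR7+Il12b+, CCR7+Il12b- and immature cells from left to right. The vertical axes differ between panels. The 4 genes of the top row descend from left to right without overlap, and Ldha, Taldo1, Tkt, Hk2, Tpi1, Pgam1 and Pdk1 ascend without overlap.

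Hif1a itself was at 8.01 and 7.7 in CCR7+Il12b+ cells, at 7.86, 7.86 and 7.68 in CCR7+Il12b- cells, and at 8.02, 7.91 and 7.88 in immature cells. The difference of -0.08 ± 0.13 in CCR7+Il12b+ cells (adjusted p = 0.659) and that of -0.14 ± 0.12 in CCR7+Il12b- cells (0.450) did not pass in limma. The CCR7+Il12b+ values overlapped the immature ones, while the CCR7+Il12b- values lay just below them. The protein is known to be controlled mainly by its breakdown, which arrays do not measure.

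Between the CCR7+ fractions the direct comparison of CCR7+Il12b+ with CCR7+Il12b- cells gave 1 rise and 3 falls among the 38 genes, 10.5% of them, where 7.08% of all genes were called, or 11.1% of genes above the mark in either group. The rise is 2.63% of the 38 genes, where 2.61% of all genes rose, and the falls are 7.89%, where 4.47% of all genes fell. Eno2 rose a further 3.24-fold (1.70 ± 0.19, adjusted p = 0.000629), while Ldha fell 2.78-fold (-1.47 ± 0.21, adjusted p = 0.00194), Taldo1 2.18-fold (-1.13 ± 0.20, adjusted p = 0.00744) and Hk2 1.58-fold (-0.66 ± 0.17, adjusted p = 0.0357). The CCR7+Il12b+ mean of Hk2, 5.14, was close to the background mark. The call of Taldo1 ended without CCR7+Il12b+ replicate 1 (adjusted p = 0.0847), and that of Hk2 ended under 8 of 19 alternatives, which are the fits without any 1 CCR7+ replicate or immature replicate 3, with array weights or with the replicate block (adjusted p from 0.0565 to 0.213). Eno3 differed by 0.60 ± 0.17 (adjusted p = 0.0534) and passed under 6 of 19 alternatives, among them the fit without CCR7+Il12b- replicate 3. Slc2a6 (0.52 ± 0.16, adjusted p = 0.0768) and Pfkfb3 (0.44 ± 0.15, adjusted p = 0.123) did not pass. Without overlap of any samples, 4 genes were highest in CCR7+Il12b+, between in CCR7+Il12b- and lowest in immature cells (10.5%, against 6.26% of all genes), and 9 ran the other way (23.7%, against 8.14%). The 4 were the genes that rose, and the 9 were Hk2, Hk3, Pfkp, Tpi1, Pgam1, Ldha, Pdk1, Taldo1 and Tkt. The sort itself orders the fractions by CCR7 and the reporter.

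Neighbouring gene lists were read beside these genes. Their counts of calls stand beside the shares of all genes called against immature cells. Those shares were 14.1% higher and 17.9% lower in CCR7+Il12b+ cells, and 9.1% higher and 14.5% lower in CCR7+Il12b- cells. No list was tested as a set. Among 21 measured genes of the tricarboxylic acid cycle and its outlets, 16 fell and 2 rose in CCR7+Il12b+ cells, and 15 fell and 1 rose in CCR7+Il12b- cells. The median log2 change of this list was -0.91 in CCR7+Il12b+ cells and -0.61 in CCR7+Il12b- cells. Idh1, the cytosolic NADPH-forming isocitrate dehydrogenase, rose by 2.56 ± 0.14 on the log2 scale in CCR7+Il12b+ cells and by 1.81 ± 0.13 in CCR7+Il12b- cells. Idh2, its mitochondrial counterpart, fell by 2.28 in CCR7+Il12b+ cells and by 1.27 in CCR7+Il12b- cells, and Fh1, fumarase, fell by 2.51 in CCR7+Il12b+ cells and by 1.43 in CCR7+Il12b- cells. Of 9 other genes of the pentose phosphate pathway and of phosphoribosyl supply none rose, and 5 fell in CCR7+Il12b+ cells and 3 in CCR7+Il12b- cells. Prps2, which makes the ribose donor of nucleotide synthesis, changed by -1.92 ± 0.18 in CCR7+Il12b+ cells and by -1.19 ± 0.17 in CCR7+Il12b- cells. Of 19 other enzymes of glycolysis and gluconeogenesis 2 rose and 6 fell in CCR7+Il12b+ cells and 0 rose and 3 fell in CCR7+Il12b- cells. Adpgk, an ADP-dependent glucokinase, changed by -1.29 ± 0.12 in CCR7+Il12b+ cells and by -0.79 ± 0.11 in CCR7+Il12b- cells. G6pc3, a phosphatase of glucose phosphate in many tissues, changed by -1.25 ± 0.22 in CCR7+Il12b+ cells and by -1.15 ± 0.20 in CCR7+Il12b- cells.

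Genes of the hexosamine and glycogen routes included rises. Of 7 hexosamine genes 4 rose and 1 fell in CCR7+Il12b+ cells, and 4 rose and 0 fell in CCR7+Il12b- cells. Uap1, which makes UDP-N-acetylglucosamine, rose by 2.02 ± 0.17 on the log2 scale in CCR7+Il12b+ cells and by 1.39 ± 0.15 in CCR7+Il12b- cells. Gfpt1, the enzyme that commits sugar to this route, rose by 1.27 ± 0.15 in CCR7+Il12b+ cells and by 1.10 ± 0.14 in CCR7+Il12b- cells. Of 12 glycogen genes 4 rose and 1 fell in CCR7+Il12b+ cells, and 3 rose and 2 fell in CCR7+Il12b- cells. Pygl, a glycogen phosphorylase that frees glucose units from glycogen, rose at least 9.37-fold in CCR7+Il12b+ cells (adjusted p = 2.07e-08) and at least 5.15-fold in CCR7+Il12b- cells (adjusted p = 6.48e-08 in limma). Phka1, a regulatory subunit of the kinase that activates it, rose by 1.47 ± 0.13 in CCR7+Il12b+ cells and by 0.70 ± 0.12 in CCR7+Il12b- cells. Of 8 genes of the serine and glycerol phosphate branches 1 rose and 4 fell in CCR7+Il12b+ cells, and 1 rose and 3 fell in CCR7+Il12b- cells. Shmt2, the mitochondrial enzyme that turns serine into glycine, changed by -1.60 ± 0.23 in CCR7+Il12b+ cells and by -1.17 ± 0.20 in CCR7+Il12b- cells.

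Partners and regulators were mixed, and their counts stand beside the same shares of all genes, 14.1% higher and 17.9% lower in CCR7+Il12b+ cells. In CCR7+Il12b- cells the shares were 9.1% and 14.5%. Of 6 partners of pyruvate dehydrogenase 2 rose and 2 fell in each comparison, and the phosphatase gene Pdp2, whose product counters the PDK kinases, rose by 1.03 ± 0.19 in CCR7+Il12b+ cells and by 0.73 ± 0.17 in CCR7+Il12b- cells. The median log2 change of these partners was -0.20 in CCR7+Il12b+ cells and -0.41 in CCR7+Il12b- cells. Of 18 other carriers none rose, and 3 fell in CCR7+Il12b+ cells and 1 in CCR7+Il12b- cells. Emb, a partner protein of monocarboxylate carriers, was at least 2.35-fold lower in CCR7+Il12b+ cells. Among 10 regulators of HIF, 2 rose and 1 fell in CCR7+Il12b+ cells, and 1 rose and 1 fell in CCR7+Il12b- cells. Vhl, part of the ligase that marks Hif1a for breakdown, rose by 1.20 ± 0.13 on the log2 scale in CCR7+Il12b+ cells and by 0.42 ± 0.12 in CCR7+Il12b- cells. Egln1, the oxygen-sensing hydroxylase that acts before it, fell by 1.33 ± 0.16 in CCR7+Il12b+ cells and by 0.95 ± 0.14 in CCR7+Il12b- cells. Of 20 HIF targets outside glycolysis 3 rose and 7 fell in CCR7+Il12b+ cells, and 2 rose and 5 fell in CCR7+Il12b- cells. Adm, the gene of the vessel-dilating peptide adrenomedullin, rose at least 2.04-fold in CCR7+Il12b+ cells and at least 2.20-fold in CCR7+Il12b- cells. Tfrc, the transferrin receptor gene, changed by -1.63 ± 0.16 in CCR7+Il12b+ cells and by -1.03 ± 0.14 in CCR7+Il12b- cells. Of 25 genes of glucose and energy sensing 2 rose and 8 fell in CCR7+Il12b+ cells, and 2 rose and 7 fell in CCR7+Il12b- cells. Myc, a transcription factor known to drive glycolytic genes, fell by 2.59 ± 0.25 in CCR7+Il12b+ cells and by 1.58 ± 0.22 in CCR7+Il12b- cells. Rptor, the gene of the Raptor subunit of an mTOR kinase complex, rose by 1.72 ± 0.19 in CCR7+Il12b+ cells and by 0.99 ± 0.17 in CCR7+Il12b- cells.

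**Figure D4:**
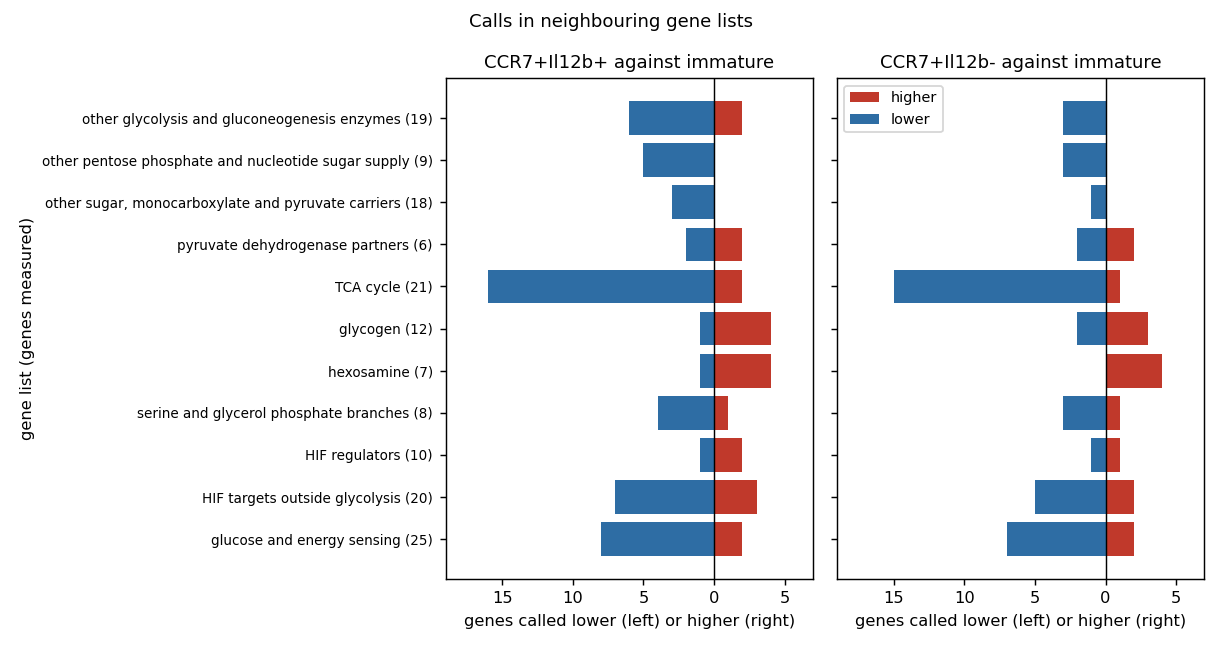
Bars count the genes of each neighbouring list that limma called higher (right of 0) or lower (left of 0) at an adjusted p under 0.05, for CCR7+Il12b+ against immature cells in the left panel and CCR7+Il12b- against immature cells in the right panel, with the number of genes measured in parentheses. The tricarboxylic acid cycle has 16 and 15 genes lower, whereas hexosamine has 4 genes higher in each panel.

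Markers of the sorted cell and of other cells were measured on the same arrays. Over all genes 14.1% rose and 17.9% fell in CCR7+Il12b+ cells, and 9.1% rose and 14.5% fell in CCR7+Il12b- cells. All 14 markers of XCR1+ dendritic cells were above the background mark in CCR7+Il12b- and immature cells, and 13 were in CCR7+Il12b+ cells, where Itgae was below it. In the limma fit 11 of them fell and 1 rose in CCR7+Il12b+ cells, and 8 fell and 1 rose in CCR7+Il12b- cells, against immature cells. Their summed level ran from 13.3 to 13.5 (log2) in CCR7+Il12b+ cells, from 13.8 to 14.2 in CCR7+Il12b- cells and from 14.5 to 14.6 in immature cells, the same order as for Ldha and Taldo1.

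Among markers of other spleen cells, 8 NK cell genes summed to 7.47 to 7.50 in CCR7+Il12b+ cells, 7.83 to 8.47 in CCR7+Il12b- cells and 8.66 to 8.85 in immature cells, with 6 of the 8 below the mark in all groups, Ncr1 and Eomes among them. The sum followed Klrk1, the gene of the receptor NKG2D, at 5.72 in CCR7+Il12b+ cells, 7.30 in CCR7+Il12b- cells and 8.27 in immature cells (means), and no other NK cell gene was called against immature cells. The 7 plasmacytoid dendritic cell genes, above the mark except Ccr9 in CCR7+Il12b+ cells, summed to 9.53 to 9.55 in CCR7+Il12b+ cells, 9.59 to 9.75 in CCR7+Il12b- cells and 10.04 to 10.31 in immature cells. In the plasmacytoid list 4 genes fell in each fraction, while 1 rose in CCR7+Il12b- cells and 0 rose in CCR7+Il12b+ cells. The 5 erythroid genes summed to 7.57 to 7.78 in CCR7+Il12b+ cells, 7.58 to 7.66 in CCR7+Il12b- cells and 7.07 to 7.32 in immature cells, with Klf1 and Car1 below the mark in all. In each CCR7+ fraction 2 of the erythroid genes rose and 0 fell. The 7 B cell genes summed to 8.62 to 8.70 in CCR7+Il12b+ cells, 9.07 to 9.55 in CCR7+Il12b- cells and 8.14 to 8.41 in immature cells, with Cd79a, Ebf1, Fcer2a and Cr2 below the mark in all. In CCR7+Il12b+ cells 1 of them rose and 1 fell, and in CCR7+Il12b- cells 3 rose. The brightest of them, Ms4a1, which encodes CD20, averaged 7.90 in CCR7+Il12b+ cells, 8.50 in CCR7+Il12b- cells and 6.99 in immature cells. The 9 CD11b+ dendritic cell genes, with Clec4a4 and Clec10a below the mark in all, were highest in CCR7+Il12b- cells (9.73 to 9.92), against 9.30 to 9.38 in CCR7+Il12b+ cells and 9.12 to 9.56 in immature cells. Against immature cells 2 of the CD11b+ list rose and 2 fell in CCR7+Il12b+ cells, and 3 rose and 1 fell in CCR7+Il12b- cells. The 7 T cell genes summed to 7.55 to 7.85 in CCR7+Il12b+ cells, 7.85 to 8.06 in CCR7+Il12b- cells and 7.89 to 7.95 in immature cells. Cd3d, Cd3g, Themis and Cd28 were below the mark in all groups, and Cd3e, Cd5 and Bcl11b were above it in all. In the T cell list 0 rose and 2 fell in CCR7+Il12b+ cells, and 1 rose and 0 fell in CCR7+Il12b- cells. Sums of 8 neutrophil genes overlapped between every pair of groups. Ly6g, Ltf, Mmp8 and Cxcr2 were below the mark in all groups, S100a8 and S100a9 were above it in all, and no neutrophil gene was called.

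The 11 monocyte and macrophage genes, with Mertk, Fcgr1 and C1qc below the mark in all, summed to 11.37 to 11.54 in CCR7+Il12b+ cells, 11.52 to 11.88 in CCR7+Il12b- cells and 11.73 to 11.75 in immature cells. This sum combines changes in opposite directions, with 3 genes higher and 3 lower in CCR7+Il12b+ cells and 3 higher and 2 lower in CCR7+Il12b- cells. Spic, a transcription factor of splenic red pulp macrophages, averaged 10.17 in CCR7+Il12b+ cells, 10.26 in CCR7+Il12b- cells and 7.11 in immature cells. Vcam1, an adhesion molecule, averaged 9.97 in CCR7+Il12b+ cells, 9.37 in CCR7+Il12b- cells and 6.81 in immature cells. Both rose by a size like that of Slc2a6, Pfkfb3 and Eno3. Other genes of this list lay much lower, nearer the background mark of 5.03. Adgre1 averaged 4.75 in CCR7+Il12b+ cells, 5.34 in CCR7+Il12b- cells and 4.65 in immature cells. In the same order of groups Csf1r averaged 5.29, 5.55 and 5.86, C1qa 5.50, 5.27 and 5.18, and C1qb 5.35, 5.20 and 4.98. Lyz2, the gene of lysozyme, averaged 7.47 in CCR7+Il12b+ cells, 9.12 in CCR7+Il12b- cells and 10.58 in immature cells. Cd68, a lysosomal membrane protein gene of phagocytes, averaged 7.79 in CCR7+Il12b+ cells, 9.08 in CCR7+Il12b- cells and 10.47 in immature cells, the same order as for Ldha and Taldo1. The part of such cells in the differences above was not tested, and in sorted bulk samples fewer cells of a type and less RNA per cell cannot be told apart.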

How the data were processed

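The deposited table holds log2 expression values per probe set for 8 arrays, which the authors produced with RMA from oligo, per the submitters' processing notes. Versions, options and the build were not given in the sources used here. Normalization by RMA hides a change in total RNA per cell.

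Of 35556 rows, 21789 had 1 symbol in the platform annotation, 1621 had several and 12146 had no symbol in the table used. Of several rows per gene (999 genes) the brightest on average was kept. All 19938 genes and all 8 arrays were fitted together with a mean for each of 3 groups in limma 3.58.1 (R 4.3.3), with lmFit and eBayes, 5 residual and 5.86 prior degrees of freedom, two-sided tests and Benjamini-Hochberg adjustment over all genes. No gene was removed for low values. Errors are the model's standard errors. Where a group mean lay below the background mark, the change is a bound in which each array counts as the higher of its value and the mark. The procedure was tested on simulated data.

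Since the labels name no separate mice, the p-values reflect only how these samples vary, and that variation may be technical. The genes and lists were chosen with earlier results of these data known. Given on every array were genes called with a log2 change of at least 1, those of enzyme families called in opposite directions, and Hif1a, Slc2a1 and Pkm, while Slc16a3, the second Hk1 row and the marker genes given by their means were added after their values were seen. Neighbouring lists are exemplified by up to 3 of their called genes with the largest change per comparison. Alternatives covered normalization, filters, row choice, samples fitted, array weights, moderation, a replicate block and each sample left out.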

Additional observations from a re-analysis of the deposited data

How the results depend on the processing

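Of the 44 calls among the 38 genes in the 3 comparisons, 34 held under all 19 alternatives in which the gene was tested, and 6 of the other 10 ended only when a replicate was left out. No call changed direction. Slc2a6, Pfkfb3, Eno2 and Eno3 gave 4 rises against immature cells under every alternative. Falls numbered 18 to 21 in CCR7+Il12b+ cells (15 to 20 with 1 sample left out) and 11 to 18 in CCR7+Il12b- cells (10 to 18). In CCR7+Il12b+ against CCR7+Il12b- cells the count of rises was 2 in place of 1 after repeated quantile normalization (2), cyclic loess (2), with either filter on dim genes (2) and with the replicate number as a block (2), since Eno3 then passed, and 1 to 2 with 1 sample left out. Falls there numbered 2 to 4, and 1 to 4 with 1 sample left out, 1 being the value without CCR7+Il12b+ replicate 1. Between same-numbered samples, 7 correlations of residuals ran from -0.17 to 0.22. Residuals sum to 0 within a group of 2 or 3 arrays, so these values cannot decide whether such samples were paired. The block ended the calls of Pdk3 and Rpe in CCR7+Il12b- cells, of Slc2a3 in CCR7+Il12b+ cells and of Hk2 between the CCR7+ fractions, and ended no other call. Over all genes, median centring changed the split of higher and lower calls to 1798 and 4168 for CCR7+Il12b+ cells, against 2816 and 3567 as deposited, and to 1301 and 3397 for CCR7+Il12b- cells, against 1814 and 2892. Array weights gave 2740 higher calls for CCR7+Il12b- cells. Between the CCR7+ fractions the deposited values gave 521 higher and 891 lower, and fitting only these groups gave 327 and 631. With 1 sample left out these counts ran from 191 to 631 higher and from 517 to 1140 lower, with 191 and 521 without CCR7+Il12b+ replicate 1, 494 and 517 without CCR7+Il12b+ replicate 2, 336 and 589 without CCR7+Il12b- replicate 1, and 257 and 529 without CCR7+Il12b- replicate 2. Of the 70 comparisons of these genes that were not called, 13 passed under at least 1 alternative. Preferring a row with RefSeq transcripts was an alternative added after seeing the data. It changed the row of 1 of the 38 genes, Hk1, and no count of calls among the 38. On that row Hk1 did not overlap between any pair of groups, highest in CCR7+Il12b+ and lowest in immature cells. The counts without overlap given above use the other row. Over all genes this alternative gave 2817 higher and 3569 lower for CCR7+Il12b+ cells. A fit without 1 CCR7+Il12b+ sample assumes that the remaining one varies like the other groups. Genes near the background mark have only bounds. The causes of these changes were not tested.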
